A study of Homo sapiens with 6 samples.

Results

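The aryl hydrocarbon receptor (AHR) pathway was followed in NB4 cells through 8 genes: AHR, its partner ARNT, its repressor AHRR, the cytochrome P450 enzymes CYP1A1, CYP1A2 and CYP1B1, the ADP-ribosyltransferase TIPARP and the amino acid transporter SLC7A5. They were taken by symbol from the deposited table of human genes, where they stood on 9 of 18625 rows, because AHRR had 2 rows. All 9 rows had a mean of at least 10 normalized counts and were among the 16887 rows tested. The set was selected on the normalized counts of these same libraries, with the difference between Tan I and DMSO already known, so values of its genes in that comparison are a description and carry no p-value.

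NB4 is an established human acute promyelocytic leukemia cell line that carries the PML-RARA fusion. One group of 3 libraries came from cells kept in DMSO, the solvent, for 3 days. The other 3 libraries came from cells treated with 10 µM Tan I (tanshinone I), a lipid-soluble compound of the plant Salvia miltiorrhiza, also for 3 days. RNA-seq was used to ask which genes of these leukemia cells change when Tan I is present. Nothing in the sources used here says that the 3 libraries of a group came from separate cultures, so the spread between them may be technical.

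AHR is a ligand-activated transcription factor of the bHLH-PAS family that waits in the cytoplasm with HSP90 and its co-chaperones. A planar aromatic ligand releases it to the nucleus, where it pairs with ARNT and binds response elements with the core letters GCGTG. CYP1A1 is the classic induced gene and is used as a readout of receptor activity, while AHRR and TIPARP are induced genes that repress the receptor in turn. In blood cells, AHR is known for roles in stem cell maintenance and in myeloid and lymphoid differentiation.

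The sequences before the start sites are shown because the core letters of the response element lie in some of them and not in others. RefSeq promoters on GRCh38.p14 reach from 250 bases before a start site to 50 bases after it, and 7 of the 8 genes had an entry; CYP1B1 had none. The core GCGTG was counted on either strand of each window, as was the longer form TNGCGTG, whose matches also count as matches of the core. A match on the other strand reads CACGC in the printed direction. At least 1 core match was present in 36.5% of all 35116 promoter windows, and at least 1 match of the longer form in 5.51%. The 250 bases before the start are printed 5′ to 3′ along the gene for 5 genes, with core matches in capitals: CYP1A1 (chr15:74725529-74725778, minus strand), CYP1A2 (chr15:74748595-74748844, plus strand), the first of 3 TIPARP entries (chr3:156674340-156674589, plus strand), the first of 2 AHRR entries (chr5:321464-321713, plus strand) and SLC7A5 (chr16:87869508-87869757, minus strand).
CYP1A1: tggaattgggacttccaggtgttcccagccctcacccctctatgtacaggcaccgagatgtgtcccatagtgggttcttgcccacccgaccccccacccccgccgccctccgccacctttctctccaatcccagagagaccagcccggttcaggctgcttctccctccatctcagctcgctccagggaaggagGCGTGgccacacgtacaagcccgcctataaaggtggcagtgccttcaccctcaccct
CYP1A2: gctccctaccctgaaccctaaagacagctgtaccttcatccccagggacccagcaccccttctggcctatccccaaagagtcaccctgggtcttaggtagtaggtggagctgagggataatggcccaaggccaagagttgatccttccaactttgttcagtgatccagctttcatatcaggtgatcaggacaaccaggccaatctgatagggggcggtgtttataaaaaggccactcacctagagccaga
TIPARP: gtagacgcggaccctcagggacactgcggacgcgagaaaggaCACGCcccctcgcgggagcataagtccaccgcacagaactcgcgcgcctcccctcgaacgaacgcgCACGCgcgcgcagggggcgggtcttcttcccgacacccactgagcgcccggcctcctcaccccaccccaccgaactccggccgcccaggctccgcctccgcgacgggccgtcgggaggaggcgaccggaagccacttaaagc
AHRR: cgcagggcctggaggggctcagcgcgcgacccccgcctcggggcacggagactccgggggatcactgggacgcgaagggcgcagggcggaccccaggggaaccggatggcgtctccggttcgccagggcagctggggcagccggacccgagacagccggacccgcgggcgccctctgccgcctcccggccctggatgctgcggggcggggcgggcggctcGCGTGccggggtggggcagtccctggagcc
SLC7A5: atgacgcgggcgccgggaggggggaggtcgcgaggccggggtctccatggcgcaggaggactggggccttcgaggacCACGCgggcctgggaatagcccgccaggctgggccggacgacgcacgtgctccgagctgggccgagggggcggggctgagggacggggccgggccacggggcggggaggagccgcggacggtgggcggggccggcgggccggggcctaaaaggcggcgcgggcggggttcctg

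CYP1A1 held 1 core match in this window, 57 bases before its start. CYP1A2, whose start lies 23317 bases away on the opposite strand of chromosome 15, held 0. The first TIPARP entry held 2 and the other 2 TIPARP entries held 0. AHRR held 1 in its first entry, which was also a match of the longer form, and 2 in its second. SLC7A5 held 1, AHR held 1 (after its start) and ARNT held 0. A match is a description of the letters and not a measured binding site.

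Farther from the gene, CYP1A1 stood apart from most promoters in these letters. The 1500 bases before its start held 10 core matches, a number reached by 0.629% of the windows of this length in all promoters, and 5 of the longer form, reached by 0.0228%. The median window held 1 core match, and 72.9% held at least 1. The same length held 5 core matches before ARNT, 6, 6 and 2 before the 3 starts of TIPARP, 4 and 8 before the starts of AHRR, 3 before SLC7A5, 1 before CYP1A2 and 0 before AHR. The window before CYP1A1 had a GC content of 66.7%. A stretch of 300 bases from 1271 to 972 bases before the start (hg38 chr15:74726500-74726799, minus strand) was chosen for its core matches and held 5 of the 10, of which 2 were the longer form. It is printed with the core matches in capitals.
CYP1A1 upstream: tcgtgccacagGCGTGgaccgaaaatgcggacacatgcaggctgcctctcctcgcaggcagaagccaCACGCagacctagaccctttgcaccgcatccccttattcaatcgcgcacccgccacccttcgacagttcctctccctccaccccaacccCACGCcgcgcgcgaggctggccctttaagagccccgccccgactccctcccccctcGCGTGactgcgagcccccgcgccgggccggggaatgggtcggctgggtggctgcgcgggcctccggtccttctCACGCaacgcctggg

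The libraries held 25356503 to 31679138 reads on the listed genes in DMSO and 21502760 to 24298627 in Tan I. A normalized count is the number of reads on a gene divided by 1 size factor of its library. The first principal component (PC1) over the genes tested held 70.8% of the variance, and its scores were -48.0, 41.1 and -26.7 in DMSO replicates 1, 2 and 3 and -46.8, 8.65 and 71.6 in Tan I replicates 1, 2 and 3. DMSO replicate 2 and Tan I replicate 3 were thus the highest of their groups, and they were also the libraries with the largest share of reads on their 50 most abundant genes (22.5% and 23.3%, against 17.4% to 19.6% in the other 4). The markers of NB4 as a promyelocytic line were present: 9 of 10 myeloid markers were in the table (ELANE was not analysed here), led by MPO, the peroxidase of primary granules. Their summed level ran from 72987 to 79811 normalized counts in DMSO and from 44081 to 52921 in Tan I, and most of this difference was MPO, which fell from a mean of 62588 to 36602 (log2 fold change -0.78, called without adjustment). Of the 9 markers, 2 were called without adjustment, as were 2.42% of all genes tested. With adjustment, limma called 0% of all genes. The 2 markers were MPO and the granule protease gene CTSG (-0.69). The median of the 9 was -0.25, while the myeloid factor gene SPI1 was at 0.36. The part of this shift in the results on the AHR pathway was not tested. Of 10 markers of other cell types, 6 were in the table, with a summed level of 711 to 839 in DMSO and 644 to 942 in Tan I. The T cell gene CD3E and the liver gene ALB stayed at or under 25.3 in every library, while CD3D reached 515.

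Among the 9 rows, the 3 libraries with Tan I stood above the 3 DMSO libraries for CYP1A1, CYP1B1 and TIPARP, and the groups overlapped for the other 6. Over all genes tested, 3.92% had every Tan I library above every DMSO library and 3.97% had every one below. In limma, these same 3 rows passed the thresholds without adjustment (p-value 0.05 and log2 fold change 0.25 in either direction), as did 2.42% of all genes tested (408 genes, 1.32% higher and 1.1% lower). With adjustment over all genes, limma called 0 of the 9 rows and 0% of all genes. On the recovered reads, edgeR and DESeq2 also called 3 rows without adjustment, beside 2.42% and 2.49% of all genes. A change in the share of cells that express a gene and a change in its RNA per cell cannot be told apart in such bulk samples. The plot of normalized counts by library shows each value.

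**Figure D1:**
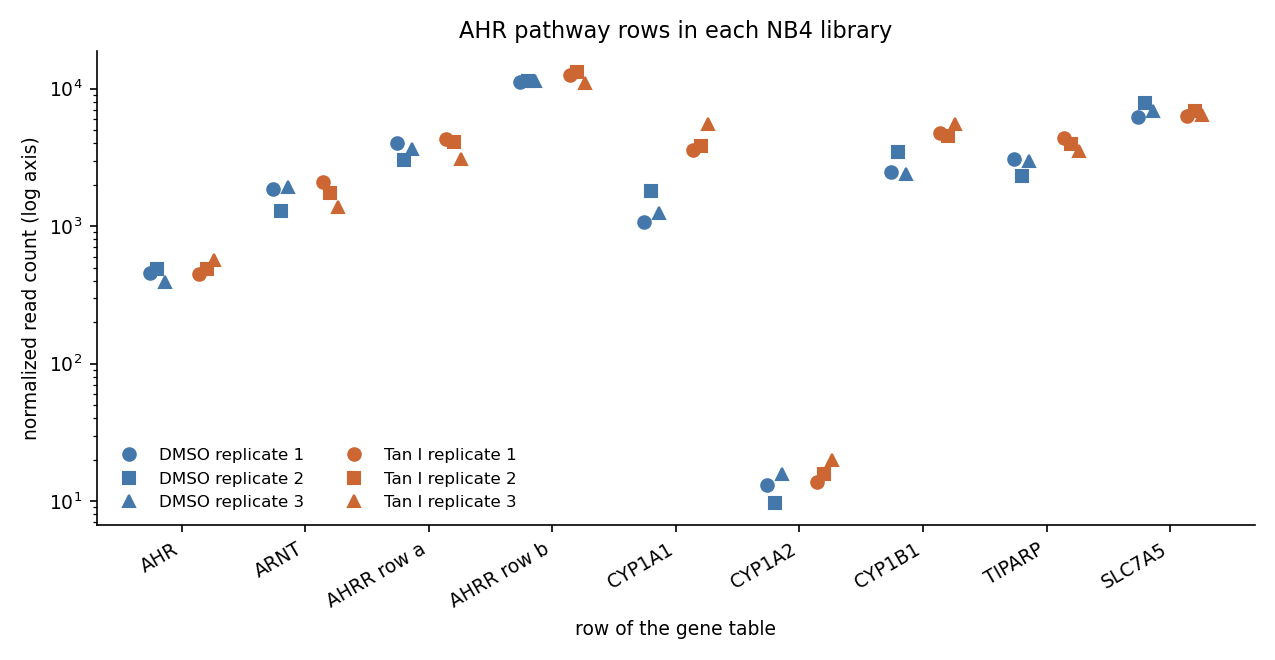
Normalized read counts (log axis) of the 9 rows in each NB4 library, with 1 point per library, DMSO in blue and Tan I in orange, and the shape giving the replicate number. The Tan I points of CYP1A1, CYP1B1 and TIPARP lie above all DMSO points, and in the other 6 rows the groups overlap.

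AHR (ENSG00000106546, chr7:16916359-17346152, plus strand) encodes the receptor itself. Its normalized counts were 454, 487 and 391 in DMSO replicates 1, 2 and 3 and 449.6, 486 and 568 in Tan I replicates 1, 2 and 3. The Tan I libraries were not separated from DMSO, and only Tan I replicate 3 stood above every DMSO library. The mean ± SD (n = 3 per group, here and for the other genes) was 444 ± 48.7 in DMSO and 501 ± 60.7 with Tan I. The log2 fold change was 0.17 with a standard error of 0.15 and a 95% interval of -0.18 to 0.52. Its mean over the 6 libraries ranked at percentile 55.8 of the genes tested, by counts that were not divided by gene length.

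ARNT (ENSG00000143437, chr1:150809713-150876708, minus strand), the nuclear partner that AHR needs to bind DNA, had normalized counts of 1869, 1288 and 1922 in DMSO and 2081, 1740.0 and 1371 in Tan I. The groups covered nearly the same range, with DMSO replicate 2 and Tan I replicate 3 lowest in their groups. The means were 1693 ± 352 and 1731 ± 355, and the log2 fold change was 0.03 with a standard error of 0.21 and a 95% interval of -0.46 to 0.53.

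AHRR, which competes with AHR for ARNT and for the response element, stood on 2 rows. The first (row a, ENSG00000063438, chr5:321714-438291, plus strand) is the AHRR of GENCODE release 44. The second (row b, ENSG00000286169) carries the same symbol in the deposited table but is not in that release, so no position or length is given for it. How reads on exons shared by these rows and by the readthrough gene PDCD6-AHRR were assigned is not stated, and values of the rows are therefore uncertain.

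Row a had 4024, 3036 and 3658 normalized counts in DMSO and 4291, 4072 and 3069 in Tan I, with means of 3573 ± 499.8 and 3811 ± 652. Row b had 11104, 11372 and 11411 in DMSO and 12545, 13152 and 11071 in Tan I, with means of 11296 ± 167 and 12256 ± 1069.8. In each row Tan I replicates 1 and 2 lay above the DMSO libraries and Tan I replicate 3 did not. The log2 fold changes were 0.09 (standard error 0.17, 95% interval -0.31 to 0.49) in row a and 0.11 (standard error 0.12, 95% interval -0.17 to 0.40) in row b. Summed, the rows gave 14869 ± 399.8 in DMSO and 16067 ± 1680 in Tan I, a log2 fold change of 0.11; this sum was added after the data were seen. By its mean over the 6 libraries, row b ranked at percentile 98.5 of the genes tested and row a at percentile 93.0. Within a library, row b held 2.76 to 3.75 times the counts of row a in DMSO and 2.92 to 3.61 times in Tan I. The neighbouring gene PDCD6, looked at after the values were seen because the readthrough begins in it, had 511 ± 24.8 in DMSO and 506 ± 84.1 in Tan I.

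CYP1A1 (ENSG00000140465, chr15:74719542-74725536, minus strand) encodes a microsomal monooxygenase that oxidizes polycyclic aromatic compounds. Its normalized counts were 1075, 1792 and 1250.2 in DMSO and 3590.1, 3821 and 5498 in Tan I. Every Tan I library stood above every DMSO library, and the lowest Tan I value was 2.0 times the highest DMSO value. The means were 1372 ± 373 and 4303 ± 1041, a ratio of 3.14. The log2 fold change was 1.66 with a standard error of 0.23 and a 95% interval of 1.11 to 2.20. These values rest on 1153 to 1860 reads per library in DMSO and 3626 to 4123 in Tan I, so counting error is small beside the spread between libraries.

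Among all genes tested, 1 rose more than CYP1A1 on this scale, the complement gene C1QA, which was looked up after the values were seen. Among the 4962 genes whose mean reached 1000 normalized counts, 0 rose more. CYP1A1 was not silent without Tan I, since each DMSO library held at least 1075 normalized counts. Its mean over the 6 libraries, which includes Tan I, ranked at percentile 89.8 of the genes tested.

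CYP1A2 (ENSG00000140505, chr15:74748845-74756607, plus strand), the neighbouring enzyme known mainly from liver, was close to the floor of the table. It had 13.1, 9.63 and 15.6 normalized counts in DMSO and 13.7, 15.8 and 20.0 in Tan I, from 10 to 20 reads per library. Tan I replicate 1 lay within the DMSO range, and Tan I replicates 2 and 3 lay above it. The means were 12.8 ± 3.01 and 16.5 ± 3.22, and the log2 fold change was 0.35 with a standard error of 0.36 and a 95% interval of -0.49 to 1.20. At this depth a change of the size seen in CYP1B1 lay inside that interval. In the same library, CYP1A1 held 80.0 to 186 times the counts of CYP1A2 in DMSO and 242 to 275 times in Tan I.

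CYP1B1 (ENSG00000138061, chr2:38066973-38109902, minus strand) encodes a member of the family that hydroxylates estradiol and is found mostly outside the liver. It had 2474, 3459 and 2385 normalized counts in DMSO and 4789, 4518 and 5541 in Tan I. The groups did not overlap, and the lowest Tan I library held 1.31 times the highest DMSO library. The means were 2772 ± 596 and 4949.5 ± 529.9, a ratio of 1.79. The log2 fold change was 0.85 with a standard error of 0.17 and a 95% interval of 0.45 to 1.25. On this scale 78 of the genes tested rose more.

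CYP1B1-AS1 (ENSG00000232973, chr2:38073447-38231651, plus strand) overlaps CYP1B1 on the opposite strand and was looked at for that reason after the values were seen. It had 48.5, 40.5 and 35.9 normalized counts in DMSO and 92.9, 69.6 and 73.3 in Tan I, so that its groups were also separated. The means were 41.6 ± 6.35 and 78.6 ± 12.5, and the log2 fold change was 0.90 with a standard error of 0.23. CYP1B1 held 67.6 ± 17.3 times the counts of its antisense gene in DMSO and 64.0 ± 12 times in Tan I. Without a stated strand setting, reads of CYP1B1 and CYP1B1-AS1 cannot be told apart where they overlap.

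TIPARP (ENSG00000163659, chr3:156673235-156706770, plus strand) encodes a mono-ADP-ribosyltransferase that modifies AHR and limits its activity. It had 3068, 2325 and 2976 normalized counts in DMSO and 4343, 3933 and 3537 in Tan I. The groups were separated by less than those of CYP1A1 and CYP1B1, with the lowest Tan I library at 1.15 times the highest DMSO library. The means were 2789.7 ± 405 and 3938 ± 403, a ratio of 1.41. The log2 fold change was 0.50 with a standard error of 0.15 and a 95% interval of 0.16 to 0.85, and 470 of the genes tested rose more. With library totals made equal, the log2 fold change was 0.44 and TIPARP no longer passed the unadjusted threshold, while CYP1A1 and CYP1B1 did. TIPARP-AS1, which overlaps the 5′ part of TIPARP on the opposite strand and was also looked at afterwards, had 39.2 ± 5.63 in DMSO and 31.2 ± 7.14 in Tan I.

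SLC7A5 (ENSG00000103257, chr16:87830023-87869507, minus strand) encodes LAT1, the exchanger that brings leucine and tryptophan into the cell and is listed among AHR targets. It had 6186, 7861 and 6852 normalized counts in DMSO and 6329.8, 6852 and 6401 in Tan I. The Tan I libraries lay within the range of the DMSO libraries. The means were 6966 ± 844 and 6528 ± 283, and the log2 fold change was -0.09 with a standard error of 0.13 and a 95% interval of -0.38 to 0.21.

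**Figure D2:**
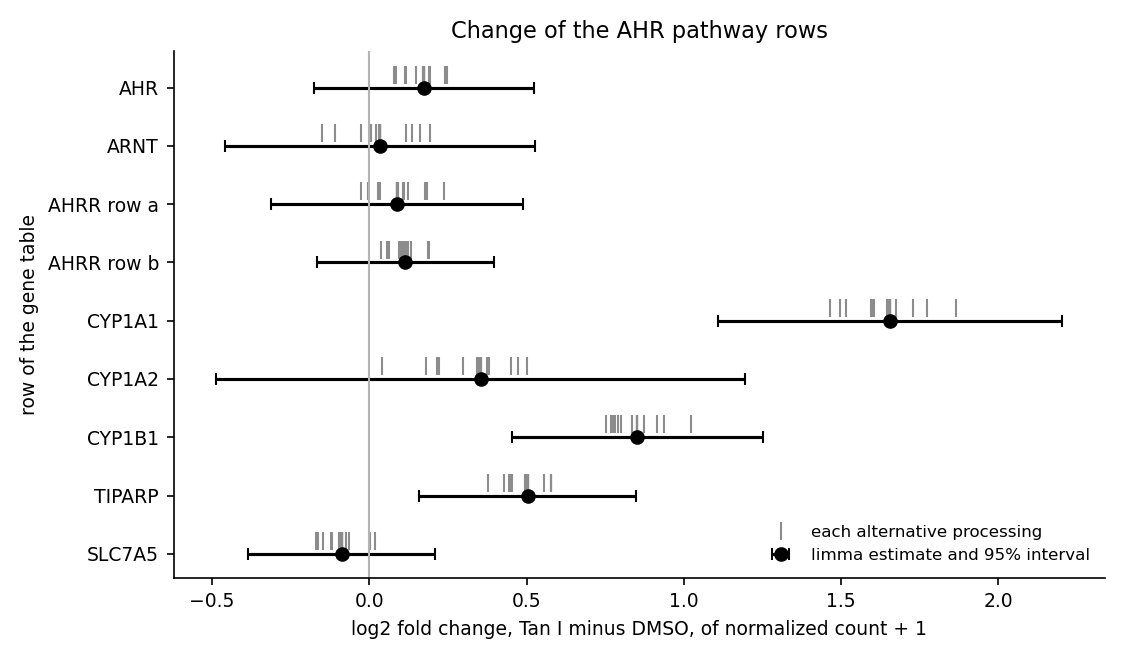
Log2 fold change (Tan I minus DMSO, of the normalized count plus 1) of the 9 rows, with the limma estimate and its 95% interval in black and a grey tick for each alternative way of processing. The intervals of CYP1A1 (1.11 to 2.20), CYP1B1 (0.45 to 1.25) and TIPARP (0.16 to 0.85) lie above 0, and those of the other 6 rows include 0. The rows were selected on this same difference, so the intervals are a description and not a test.

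The CYP1 enzymes differed in level and in the size of the difference between the groups. CYP1A1 held 0.435, 0.518 and 0.524 times the counts of CYP1B1 in the DMSO libraries and 0.750, 0.846 and 0.992 times in the Tan I libraries. The ratio was higher in every Tan I library, with means of 0.492 ± 0.050 and 0.863 ± 0.122. Because such a ratio is taken within 1 library, it does not depend on the size factors. Against the receptor, CYP1A1 held 2.37, 3.68 and 3.19 times the counts of AHR in DMSO and 7.98, 7.87 and 9.68 times in Tan I, again without overlap.

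**Figure D3:**
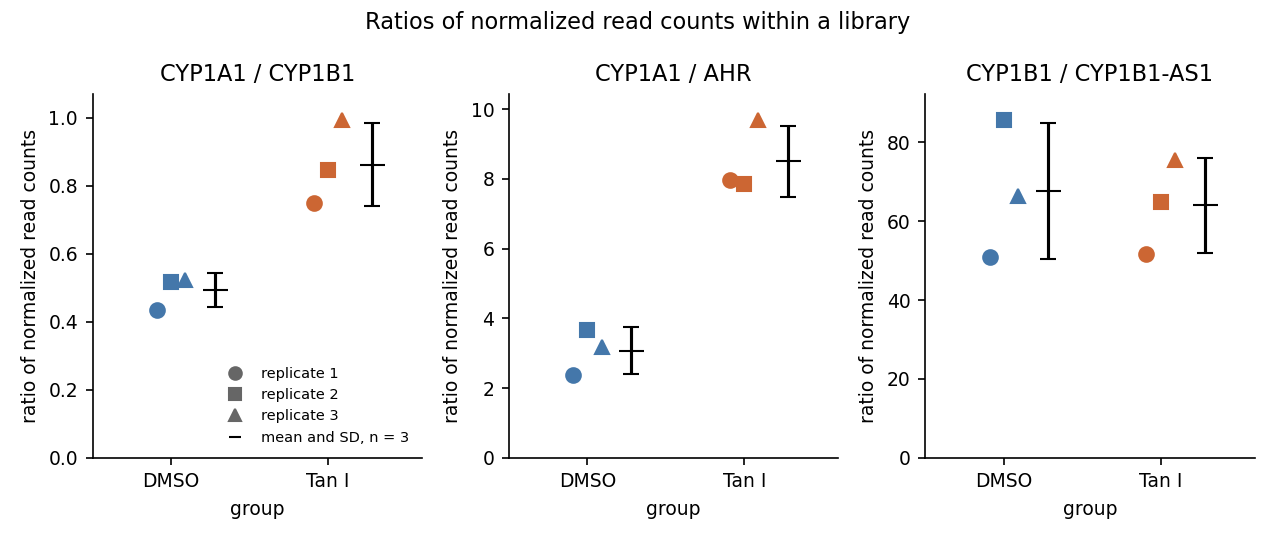
Ratios of normalized read counts within each library for CYP1A1 over CYP1B1, CYP1A1 over AHR and CYP1B1 over its antisense gene CYP1B1-AS1, with 1 point per library and the mean ± SD (n = 3) beside each group. The means of the first ratio are 0.492 and 0.863 and those of the second 3.08 and 8.51, each without overlap, while the third overlaps (67.6 and 64.0).

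To compare levels between genes, normalized counts were divided by the length of the annotated exons in kilobases, leaving out row b of AHRR, which has no length here. In DMSO the order of these levels was SLC7A5 (1462 per kb), TIPARP (581), CYP1B1 (460.2), CYP1A1 (408), AHRR row a (377), ARNT (263), AHR (55.2) and CYP1A2 (4.08). From TIPARP down to AHRR row a, each gene overlapped its neighbour in its range over the DMSO libraries, and the other neighbours did not overlap. In Tan I the level of CYP1A1 moved from place 4 to place 2, at 1280.4 per kb (1068 to 1636), and overlapped that of SLC7A5, at 1370.2 per kb (1329 to 1438). CYP1B1 (822 per kb) and TIPARP (820.3 per kb) came next and overlapped each other. AHRR row a, ARNT, AHR and CYP1A2 kept the last places in that order, at 402, 268, 62.3 and 5.27 per kb. In each group the receptor thus had a lower level per kb than every other gene of the set except CYP1A2. With the length of the longest transcript in place of all exons, 3 places of the DMSO order changed, with AHRR row a before CYP1B1 and CYP1B1 before CYP1A1. CYP1A1 was then at place 5 in DMSO and at place 1 in Tan I, where it stood at 1650.0 per kb and SLC7A5 at 1433 per kb.

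The rows also differed in how they varied within a group, and for 6 of the 9 the library with the highest PC1 score deviated in the same direction in both groups. In log2 values, CYP1A1 in DMSO replicate 2 was 0.63 above the mean of the other DMSO libraries, and in Tan I replicate 3 it was 0.57 above the mean of the other Tan I libraries. CYP1B1 (0.51 and 0.25) and AHR (0.21 and 0.28) were also higher in these libraries than in the rest of their groups. In the same libraries ARNT (-0.56 and -0.47), AHRR row a (-0.34 and -0.45) and TIPARP (-0.38 and -0.22) were lower. The other 3 rows had opposite signs in these libraries, with CYP1A2 at -0.52 and 0.42, SLC7A5 at 0.27 and -0.04 and AHRR row b at 0.01 and -0.21. The median over all genes tested was 0.03 in DMSO replicate 2 and 0.01 in Tan I replicate 3, and 82.0% of the genes had the same sign in both. Within the groups, CYP1A1 and CYP1B1 thus moved one way along these scores and TIPARP the other, while between the groups all 3 were higher with Tan I.

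DMSO replicate 2 and Tan I replicate 3 were left out together in a setting chosen after the data were seen. The log2 fold changes of CYP1A1, CYP1B1 and TIPARP were then 1.67, 0.94 and 0.45, and all 3 passed the unadjusted threshold, as did 2.82% of all genes. With adjustment 1 of the 9 rows passed (CYP1A1), beside 0.0118% of all genes. With the PC1 score as a covariate, also chosen afterwards, all 3 passed without adjustment, as did 8.86% of all genes, and with adjustment, as did 1.15%. In DESeq2 on the recovered reads, CYP1A1 and CYP1B1 passed with adjustment, as did 0.107% of the genes with an adjusted p-value, while in edgeR 0 of the 9 rows did (0%). These counts are a description, since the rows were selected on this same difference. The pooled within-group SD of log2 values was 0.36 for CYP1A1, 0.23 for CYP1B1 and 0.19 for TIPARP, against a median of 0.28 over all genes tested.

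**Figure D4:**
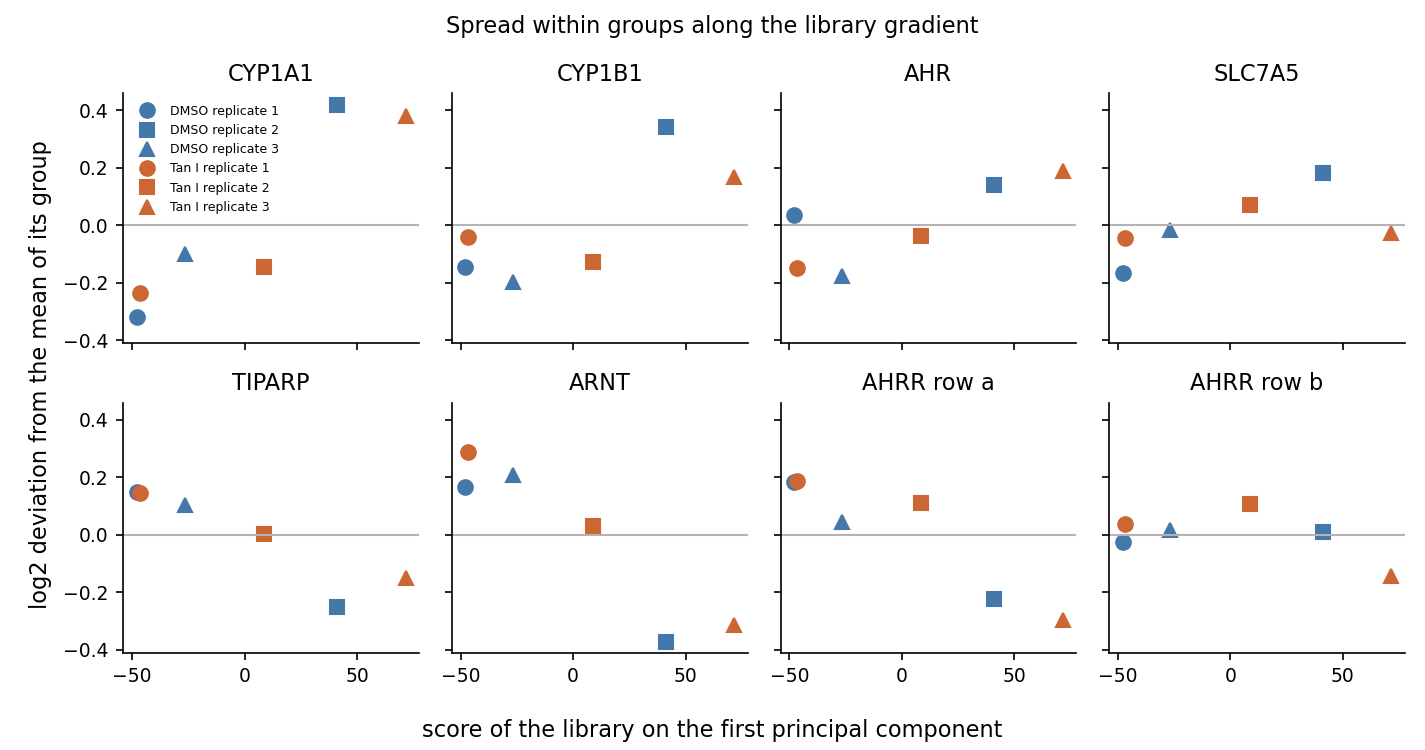
Deviation of each library from the mean of its own group (log2) against the PC1 score of the library, for 8 of the 9 rows (CYP1A2 is left out for its low counts). CYP1A1, CYP1B1 and AHR are highest within their groups in DMSO replicate 2 (score 41.1) and Tan I replicate 3 (score 71.6), where TIPARP, ARNT and AHRR row a are lowest.

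The genes with the profile most like a given row were found by the root mean square difference of log2 values over the 6 libraries, after each gene was centred on its mean. This is a description of the 6 values, which share the groups and the library scores. Nearest to CYP1A1 were FUCA1, a lysosomal fucosidase (0.158), IL32, a cytokine (0.168), and KRT79, a keratin (0.232). IL32 had 759, 1491 and 805 normalized counts in DMSO and 2154, 3012 and 4295 in Tan I, with the same highest library in each group as CYP1A1. Nearest to CYP1B1 were TGM5, a transglutaminase (0.0841), GCNA (0.109) and the matrix protein gene TNC (0.116). Nearest to TIPARP were the potassium channel gene KCNN2 (0.0707), ANKRD23 (0.0901) and the centromere chaperone gene HJURP (0.0952). KCNN2 (9.63 to 17.6 normalized counts) and TNC (9.32 to 24.0) lay near the filter of 10, so their profiles rest on few reads. The rows of AHRR had nearer neighbours, UBA6 (0.0271), ELOVL6 (0.0324) and ATP2A2 (0.0358) for row a and KBTBD2 (0.0182), NBR2 (0.0301) and DPAGT1 (0.0312) for row b. Among the 9 rows themselves, the closest pair was AHRR row a and ARNT (0.108).

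Around these genes, 9 lists of the wider pathway held 120 symbols, of which 98 were in the table and 95 were tested. Without adjustment, 2 rose and 3 fell, or 5.26% of those tested against 2.42% of all genes. With adjustment, limma without a covariate called 0 of them. With the PC1 score as a covariate, chosen afterwards, NQO1 and SLC7A8 passed with adjustment, as did 1.15% of all genes. The genes MED1, ABCG2 and CYP3A4 did not. The lists were chosen with earlier results of these data known, so these shares are a description. The share of 2.42% over all genes is also the background for the count of each list below. The log2 fold change was above 0 in 40 of the 95, with a median of -0.02, against 49.7% above 0 and a median of -0.0016 over all genes tested. The plot of the lists shows each gene.

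**Figure D5:**
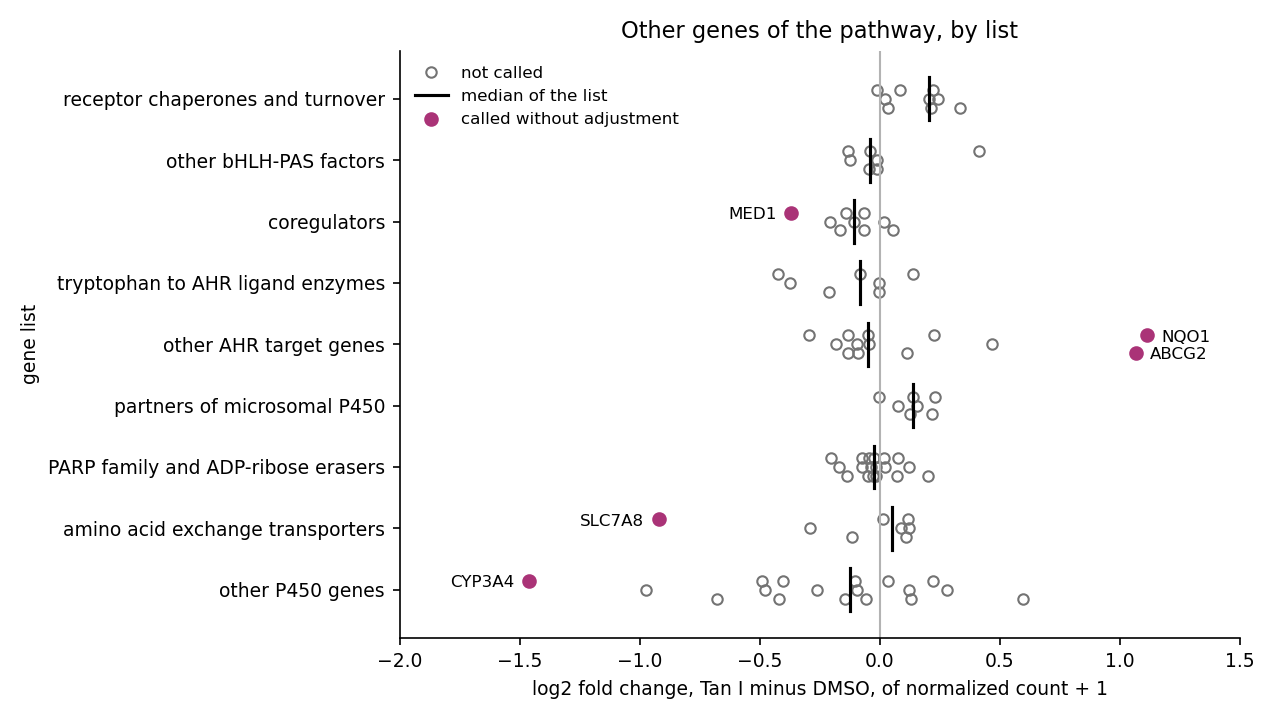
Log2 fold change (Tan I minus DMSO, of the normalized count plus 1) of the 95 tested genes in 9 wider AHR pathway lists. Each gene is 1 circle, except CYP2S1, which is drawn both among other AHR targets and among other P450 genes. Circles are filled for genes called without adjustment, and a bar marks the median of each list. The medians run from -0.12 for other P450 genes to 0.21 for chaperones and turnover, and the 5 called genes (NQO1, ABCG2, MED1, SLC7A8 and CYP3A4) stand apart from the medians of their lists.

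The chaperones that hold the receptor and the factors that degrade it were measured on 9 of 9 symbols. None was called (0 of 9), although 8 of the 9 had a log2 fold change above 0 and the median was 0.21. HSP90AA1, the inducible cytosolic HSP90, had the largest value, 0.34, with 47045, 20834 and 50285 normalized counts in DMSO and 51512, 52262 and 36858 in Tan I. Its groups overlapped, and it was lowest in DMSO replicate 2 and Tan I replicate 3. CUL4B, the cullin of the ligase in which AHR serves as an adaptor, had the lowest value, -0.01.

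Of 7 tested genes among other bHLH-PAS factors, 0 were called, and the median was -0.04. NPAS2, a circadian factor, was at 0.41 and SIM2 at -0.13. Of 9 coregulators tested, 1 fell and the median was -0.11. This was MED1, a Mediator subunit that contacts nuclear receptors, with 929, 978 and 954 normalized counts in DMSO and 875, 681 and 675 in Tan I. The groups did not overlap, and the log2 fold change was -0.37 with a standard error of 0.14 (adjusted p = 0.999 in limma). The call on MED1 was lost without any 1 of the DMSO libraries (-0.39, -0.35 and -0.37 without replicates 1, 2 and 3) and without Tan I replicate 2 or 3 (-0.31 and -0.30). SMARCA4, the ATPase of a chromatin remodeler, had the largest value of the list, 0.06.

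Enzymes that turn tryptophan into AHR ligands were tested on 7 of 12 symbols, with 0 called and a median of -0.08. KYAT3 was at 0.14 and KYAT1, which had only 21.0 ± 2.78 normalized counts in DMSO, at -0.42; each is a kynurenine aminotransferase.

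The list of other AHR target genes had 13 of its 22 symbols tested, of which 2 rose and 0 fell, with a median of -0.05 and 5 above 0. NQO1, the quinone reductase that is induced through AHR and through NRF2, had 956, 1700.0 and 1080 normalized counts in DMSO and 2083, 2514 and 3399 in Tan I. The groups did not overlap, and NQO1 was highest in DMSO replicate 2 and in Tan I replicate 3, as CYP1A1 was. The log2 fold change of NQO1 was 1.11 with a standard error of 0.26 (adjusted p = 0.999 in limma without a covariate).

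ABCG2, an efflux transporter that the study itself followed up on these samples, so that it is no independent addition to the list, had 10.3, 14.4 and 14.8 normalized counts in DMSO and 28.3, 20.0 and 40.0 in Tan I. The log2 fold change of ABCG2 was 1.07 with a standard error of 0.37 (adjusted p = 0.999 in limma). From such low counts the call was lost without DMSO replicate 1 (0.91) and without Tan I replicate 3 (0.83). HES1, a Notch and AHR target, had the lowest value of the list, -0.29, with overlapping groups.

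The list of partners of microsomal P450 enzymes holds genes for electron supply or for steps on their products, and not all of the proteins are microsomal. All 7 of 7 symbols were tested. Here 0 were called, 6 of 7 had a log2 fold change above 0 and the median was 0.14. CYB5B, a cytochrome b5, had the largest value, 0.23.

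In the PARP family and the enzymes that remove ADP-ribose, 0 of 18 tested genes were called and the median was -0.03. The values ran from -0.20 for PARP3 to 0.20 for PARP2, while TIPARP, which belongs to the same family, was at 0.50. Among 8 amino acid exchange transporters 1 fell and the median was 0.05. SLC3A2, the heavy chain that pairs with SLC7A5 at the membrane, was at 0.12 with overlapping groups. SLC7A8, the light chain LAT2, fell from 83.9, 81.9 and 84.4 normalized counts in DMSO to 36.2, 50.6 and 45.3 in Tan I. The log2 fold change of SLC7A8 was -0.92 with a standard error of 0.22 (adjusted p = 0.999 in limma without a covariate). Its unadjusted call held without each library in turn.

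Of 18 tested P450 genes outside the CYP1 family, 1 fell, 6 had a log2 fold change above 0 and the median was -0.12. CYP3A4, the main drug-metabolizing enzyme of the liver, had 29.8, 17.3 and 28.1 normalized counts in DMSO and 9.77, 10.5 and 5.33 in Tan I. The log2 fold change of CYP3A4 was -1.46 with a standard error of 0.41 (adjusted p = 0.999 in limma), from as few as 4 reads in Tan I replicate 3. CYP11A1, the first enzyme of steroid synthesis, had the largest value, 0.60, and its groups overlapped.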

How the data were processed

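RNA-seq was performed on NB4 cells with 3 DMSO and 3 Tan I libraries, grouped by their labels. According to the study's methods, total RNA was extracted with TRIzol and sequenced as paired ends, and the authors aligned reads to GRCh38 with STAR, removed reads mapped to several locations, counted per gene with featureCounts and ran DESeq2. Versions, the annotation release and the strand setting are not given in the sources used here, and the submitters' processing notes name the same tools. The values deposited by the authors are a signal, normalized counts, that is, reads divided by 1 size factor per library. The authors also deposited their own comparison (log2 fold change, its error, a Wald score, p-values), which was not used here. All values (100%) were whole multiples of 1 read within a tolerance of 0.01 reads, so the reads were recovered.

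Groups were compared with limma 3.58.1 (with trend, R 4.3.3) on log2(normalized count + 1), which understates changes of low genes, for genes with a mean of at least 10, with Benjamini-Hochberg adjustment. This left out 1738 of 18625 rows. A gene was called where its p-value, without or with adjustment, did not exceed 0.05 and its log2 fold change reached 0.25 in either direction. edgeR 4.0.16 and DESeq2 1.42.0 on the recovered reads were alternatives; DESeq2 gave no adjusted p-value for 1965 genes. The scripts were tested on simulated data. P-values measure the spread between these libraries only. Positions and exon lengths are from GENCODE release 44, which holds 99.6% of the identifiers, and promoters are from RefSeq, GRCh38.p14, identical to hg38 in 100% of windows.

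The members and the gene lists were chosen with earlier results of these data known. Named genes were all 8 members, in each list every gene called without adjustment and the largest rise and fall, and the 3 nearest profiles of CYP1A1, CYP1B1, TIPARP and AHRR. 1 gene that this rule named is not reported here. Alternatives were pseudocounts of 0.1 and 10, no filter, a mean of at least 50, quantile normalization, equal totals, no trend, a replicate block, each library left out, and another transcript length.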

Additional observations from a re-analysis of the deposited data

How the results depend on the processing

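In 18 alternatives, the log2 fold changes of CYP1A1 (1.47 to 1.86), CYP1B1 (0.75 to 1.02), TIPARP (0.38 to 0.58), AHR (0.08 to 0.25) and AHRR row b (0.04 to 0.19) kept their sign, and those of ARNT (-0.15 to 0.19), AHRR row a (-0.03 to 0.24) and SLC7A5 (-0.17 to 0.02) did not. CYP1A2 was at 0.04 without DMSO replicate 2 and Tan I replicate 3. The number of members called without adjustment was 3 in every alternative except with equal library totals, where it was 2. Over all genes tested, the number called ran from 160 to 1496 in these alternatives. The members were selected on this same difference, so their count is a description. Depth limits genes with few reads, such as CYP1A2, ABCG2 and CYP3A4.

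The 408 genes called without adjustment became 160 (without Tan I replicate 2) to 1496 (without Tan I replicate 1) when 1 library was left out, with 180 and 201 without DMSO replicates 1 and 3 and 271 without Tan I replicate 3, and 1496 with the score on the first principal component as covariate. With equal library totals, 189 were higher and 250 lower (43.1% higher, against 223 and 185, 54.7%). With adjustment, 0 genes became 16 in DESeq2, 2 without DMSO replicate 2 and Tan I replicate 3, and 194 with the covariate, and 0 members became 2, 1 and 3. The replicate block gave 348 genes. Same-numbered libraries were not paired by any label, their deviations correlated at 0.75, -0.09 and -0.45, and not every library correlated best with its own number.

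For the lists, leaving out 1 library gave 0 to 1 calls for chaperones, P450 partners and the PARP family. The 1 call in each came without Tan I replicate 1, where 1496 of the 16887 genes tested were called. Coregulators had 0 to 1 calls, other AHR targets 1 to 2 and other P450 genes 1 to 4. With 1 library left out, 160 to 1496 of the 16887 genes tested were called. Without DMSO replicate 2 and Tan I replicate 3, coregulators had 0 calls, other targets 1 and other P450 genes 2, beside 2.82% of all genes. With the covariate, chaperones had 1, other targets 4 and other P450 genes 2, beside 8.86% of all genes. A mean of at least 50, with 322 of 12621 genes called, gave 1 for other targets and 0 for other P450 genes. Limma without the trend, with 556 of 16887 genes called, gave 2 for other P450 genes. The longest transcript as length changed 3 places of the level order in DMSO and put CYP1A1 before SLC7A5 in Tan I. The causes were not tested. The sum of the AHRR rows, the libraries left out together and the covariate were chosen after seeing the data.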
